A study of Drosophila melanogaster with 5 samples.

Results

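Heads of wild-type Drosophila melanogaster fed Levodopa at 29 °C were compared with heads of wild-type flies held at 29 °C without it, 1 polyA RNA library a group. These are 2 of the 5 samples of the series. The features compared were those with at least 50 counts in 1 of the 2 libraries, which left 9037 of the 24034 features in the deposited table. A feature under 50 counts in 1 library was compared only through the other, so a difference in that direction was partly built in. Of all features, 27 lay exactly at 50 counts in the higher library, with log2 fold changes of -0.86 to 1.07, and 20 at 49, with -0.88 to 1.49. A feature counted as risen or fallen (the size rule) if its 2 libraries, brought to a common depth and each given 10 extra counts, stood 2-fold or more apart. Folds are ratios of the scaled counts, with an exact 95% interval for counting error. Log2 fold changes include the 10 added counts and are Levodopa against control.

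The series also holds control and Levodopa heads at 25 °C and heads with neuronal overexpression of histone H1 (H1OE) at 29 °C. It was designed around the gain of histone H1 protein and loss of acetylation in flies treated with Levodopa. Per the labels' protocols the drug was mixed into the food at 4 g/L for 7 days. The labels give wild type for both groups compared here, with no strain, sex or age, and no time at 29 °C for either. The sources name the tissue both as heads and as brain. With 1 library a group there was no replicate check and no p-value can be given. How much 2 unfed libraries would differ was not measured.

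Levodopa is made into dopamine by a decarboxylase, which Ddc encodes in the fly. A fly head holds the brain and eyes together with glia, muscle, blood cells and a layer of fat body, which acts as liver and adipose tissue and secretes antimicrobial peptides, yolk and storage proteins into the haemolymph. Peptidoglycan of many bacteria is sensed through the Imd pathway, whose NF-kB factor Relish switches on the diptericin and attacin genes, while fungi and other bacteria act through the Toll pathway.

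The 2 libraries were alike in most features. Library totals were 24770629 counts in control and 25975838 in Levodopa, and a count of 0 allows up to 3 counts, or 0.121 and 0.115 CPM (counts scaled to a common library size). The mitochondrial genome took 5.23% of counts in control and 4.96% in Levodopa. Of the 9037 features, 8695 (96.2%) lay within 1.5-fold of each other, with a median log2 fold change of -0.00 and quartiles of -0.14 and 0.11. In all 82 features (0.907%) passed the size rule. Of these 27 (0.299%) were higher and 55 (0.609%) lower in Levodopa. The rises were mostly of features with few counts: 16 of the 27 had under 100 counts in both libraries and the highest reached 845 counts. Among the falls 21 of 55 had under 100 counts in both, and 29 had at least 200 in 1 library. Just inside the rule were CG15423 (127 and 63 counts) and CG30414 (35 and 86), and just outside it Lcp65Ag2 (54 and 24) and Nep5 (37 and 90). The whole counting interval lay past 2-fold for 8 rises (0.0885%) and 37 falls (0.409%). Together the 55 lower features held 0.771% of all counts in control and 0.329% in Levodopa, and 3 of them, Obp99b, tobi and Lsp2, made up most of that share, with 0.589 and 0.282%.

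**Figure D1:**
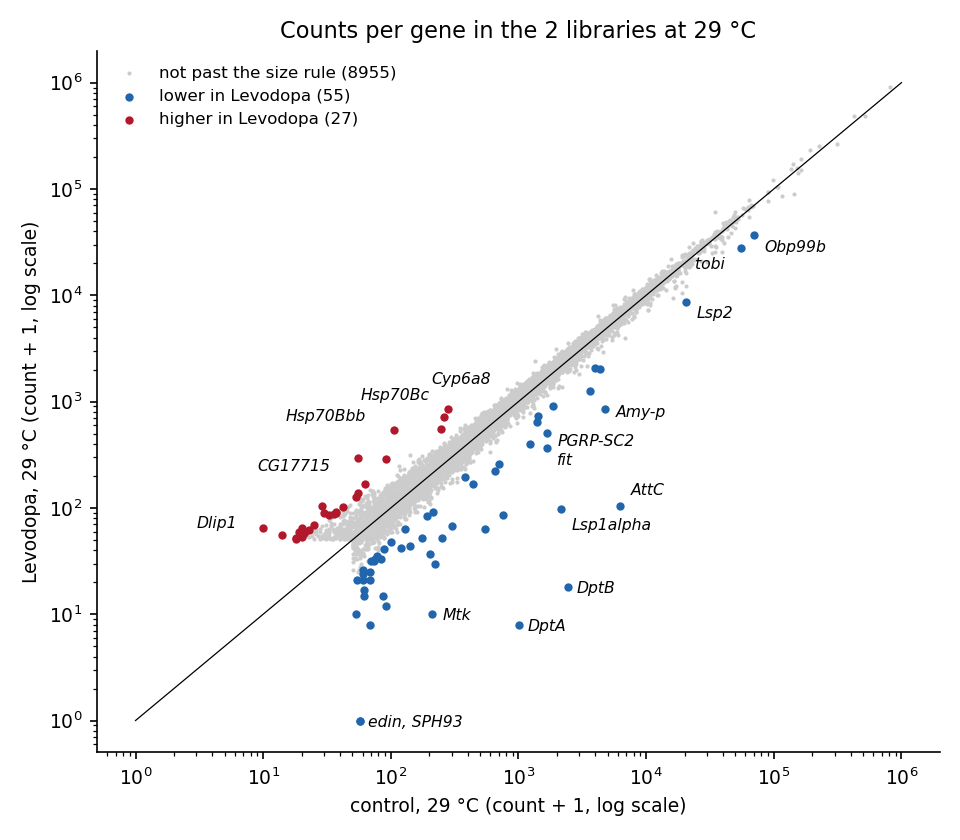
Counts per feature in the control library (horizontal) and the Levodopa library (vertical) at 29 °C, each plus 1, on log scales, for the 9037 features compared; the line marks equal counts. The 55 falls reach from features of 52 counts up to Obp99b with 70333, while the 27 rises all lie below 1000 counts.

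Cell type markers were set beside these numbers. The defining genes of neurons, photoreceptors and glia were abundant in both libraries, and none passed the size rule. Summed over 5 neuronal markers the level was 2344 CPM in control and 2552 in Levodopa, over 4 photoreceptor markers 58425 and 62581 CPM, and over 4 glial markers 2423 and 2622 CPM. The 4 haemocyte markers summed to 685 and 688 CPM and 4 muscle markers to 2870 and 3326 CPM. The 4 fat body markers summed to 11702 and 10833 CPM. Among them the lipophorin gene apolpp (log2 fold change -0.05), the fatty acid synthase gene FASN1 (-0.14) and the perilipin gene Lsd-1 (-0.10) differed little, while Lsp2 fell. In these whole-tissue samples, fewer cells of a type and less RNA per cell cannot be told apart. The ovary genes osk, nos and Cp36 and the testis genes Mst87F and dj had 0 counts in both libraries. The gut marker alphaTry was also at 0, and the gut list summed to 194 and 32.8 CPM, nearly all of it Amy-p.

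The 3 largest falls were of antibacterial peptide genes. All 9 of the compared antibacterial peptide genes fell, beside 0.609% of all features compared. Their median log2 fold change was -3.02, beside -0.00 for all features compared. Their summed counts were 11402 in control and 332 in Levodopa, 37.0-fold lower. In Levodopa DptB (17 counts), DptA (7), AttA (29), AttD (7), edin (0) and Def (20) lay below the minimum count for comparison. These genes were compared only through their control counts, so a fall was partly built in for them. AttC, AttB and Dro reached the minimum in both libraries. With no filter on counts, 9 of the 13 listed fell. The other 4 of the 13 listed, the cecropins CecA1, CecA2, CecB and CecC, had at most 5 counts in either library and were not compared.

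The diptericin genes DptA and DptB, neighbours on chromosome arm 2R (18865765 to 18867895, plus strand, dm6), showed the largest folds. DptB had 2435 counts in control and 17 in Levodopa, 154-fold lower (96.3 to 266). DptA had 1008 and 7 counts, 155-fold lower (75.1 to 387). Near-silent counts in Levodopa stood against abundant ones in control for both genes. The attacin gene AttC (2R, 13393705 to 13394667), which codes for a peptide active against Gram-negative bacteria, had the highest level per length of the list in control, 291 FPKM beside 227 for DptB and 85.0 for DptA. It went from 6267 counts to 104, 65.0-fold lower (53.5 to 79.6).

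A second cluster on 2R (14745961 to 14750165, plus strand) holds Dro, AttA and AttB side by side, and all 3 fell. Dro, the gene of the proline-rich peptide drosocin, went from 542 counts to 63, 9.28-fold lower (7.14 to 12.2). AttB went from 753 to 85 counts, 9.55-fold lower (7.62 to 12.1), and AttA from 220 to 29, 8.18-fold lower (5.54 to 12.5). AttA and AttB are near-identical and their reads may be split between them. AttD, on 3R, went from 68 to 7 counts (10.5-fold, 4.82 to 27.0) and the defensin gene Def from 53 to 20 (2.86-fold, 1.68 to 5.05). The infection-induced gene edin had 56 counts in control and 0 in Levodopa, at least 20.1-fold lower when the 0 is taken as 3 counts. Def was the member nearest the threshold, and its counts were among the lowest of the list.

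Of 17 compared Toll-pathway peptide genes 2 fell (11.8%, beside 0.609% of all features compared) and 0 rose, with a median of -0.43. Mtk, encoding the peptide metchnikowin, which receives input from both pathways, had 209 counts in control and 9 in Levodopa, 25.0-fold lower (12.9 to 55.5). Mtk was compared only through its control counts, so a fall was partly built in. The drosomycin gene Drs, the classic Toll target, went from 302 to 67 counts, 4.86-fold lower (3.72 to 6.43). None of the 9 compared bomanin genes, which encode short Toll-induced peptides, passed. Their log2 fold changes ran from -0.66 to -0.09, all below 0, with BomS2 at 599 and 404 counts and BomBc2 at 1194 and 982. SPH93, encoding a trypsin-like serine protease homologue, had 56 counts in control and 0 in Levodopa, at least 20.1-fold lower.

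Peptidoglycan recognition proteins (PGRP) sense or degrade bacterial cell wall. Of 13 compared genes of these and of Gram-negative binding proteins, 3 fell and 0 rose, with a median of -0.17. The falls were 23.1% of the list, beside 0.609% of all features compared. The fallers encode secreted proteins: PGRP-SC2, an amidase that degrades peptidoglycan, with 1665 and 502 counts (3.58-fold, 3.23 to 3.96), PGRP-SD with 1231 and 398 (3.33-fold, 2.98 to 3.74), and the amidase gene PGRP-SB1 with 3657 and 1251 (3.15-fold, 2.96 to 3.36). The amidase gene PGRP-LB had 475 and 335 counts (-0.60), and PGRP-SA, a receptor upstream of Toll, 725 and 543 (-0.52). The Imd receptor genes PGRP-LC (1263 and 1487 counts, 0.13) and PGRP-LE (315 and 308, -0.14) differed little.

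Of 27 genes of Toll and Imd signalling 1 fell (3.70%, beside 0.609% of all features compared) and 0 rose, with a median of -0.06. The faller, pirk, encodes an Imd inhibitor that is itself an Imd target, and went from 212 to 90 counts (2.54-fold, 1.98 to 3.29). The core genes did not pass: imd had 572 and 467 counts (-0.39), Rel 4005 and 3479 (-0.31), cact 3044 and 3236 (-0.02) and dl 1493 and 1735 (0.11). The Turandot genes code for stress-induced humoral factors downstream of JAK/STAT. Of 4 compared 2 fell (50%, beside 0.609% of all features compared). TotC fell from 438 to 167 counts and TotM from 73 to 31, whereas TotA (1777 and 1342, -0.51) and TotX (595 and 688, 0.10) did not pass. TotM was compared only through its control counts. All 8 compared JAK/STAT pathway genes stayed within the size rule (median 0.04). The same held for 4 thioester proteins (median -0.08), 15 serpins (-0.12) and 21 haemocyte and melanisation genes (-0.03).

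**Figure D2:**
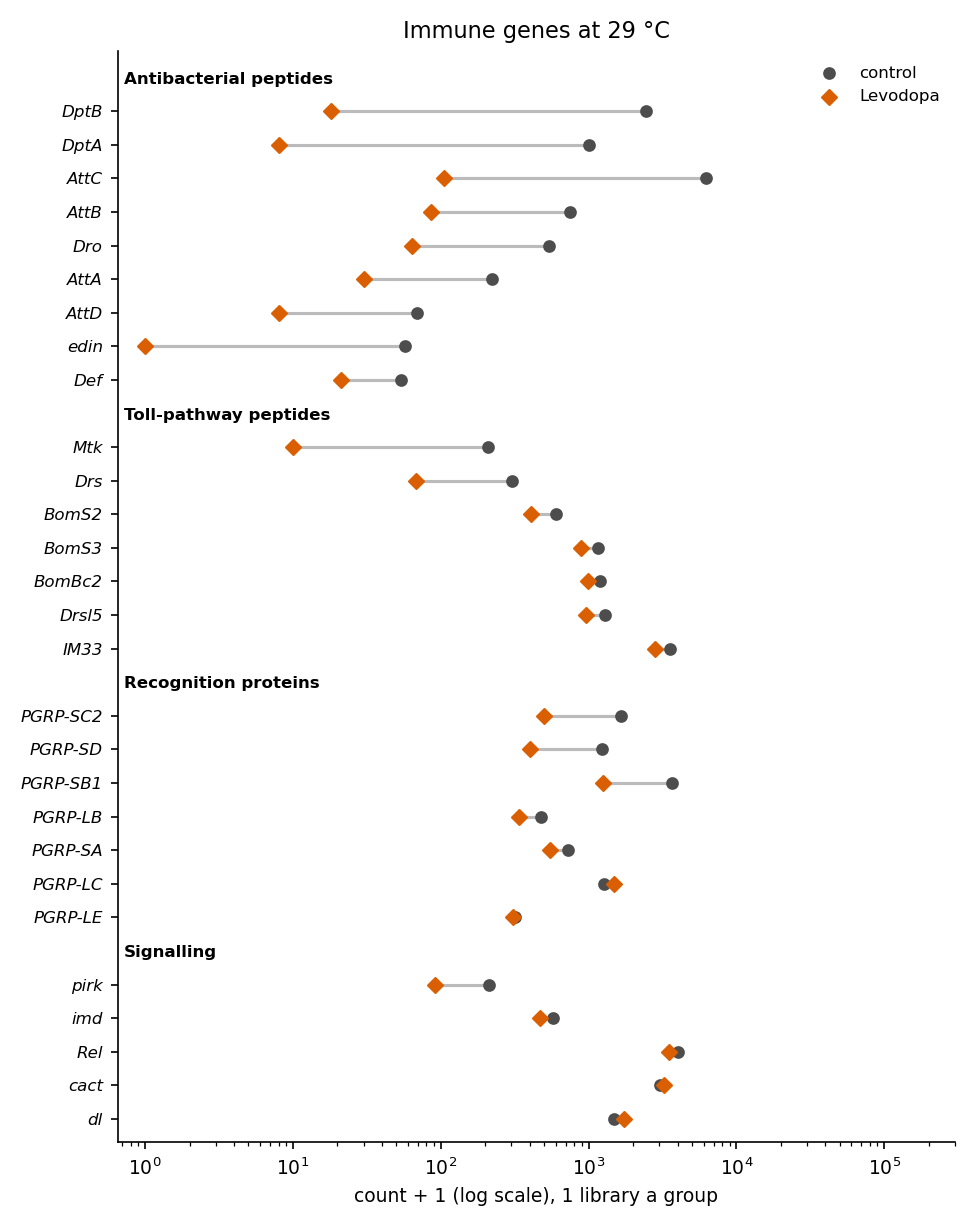
Counts plus 1 on a log scale for 28 immune genes in the control library (grey circles) and the Levodopa library (orange diamonds) at 29 °C, 1 library a group. The antibacterial peptides lie to the left in Levodopa, DptB at 17 counts beside 2435 in control, while the receptors PGRP-LC and PGRP-LE and the signalling genes cact and dl nearly coincide.

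Some storage and yolk protein genes of the fat body also fell: Lsp1alpha, Lsp2, Yp1 and Yp2, but not Lsp1beta or Yp3. The larval serum proteins are hexamerins that larvae store as amino acid reserves. Of their 3 compared genes 2 fell (66.7%, beside 0.609% of all features compared). Lsp1alpha (X, 12490291 to 12492982) had 2145 counts in control and 97 in Levodopa, 23.8-fold lower (19.5 to 29.5). Lsp2 (3L, 12129393 to 12131869) had 20606 and 8698 counts, 2.55-fold lower (2.49 to 2.62). Lsp1beta, the highest of them per length with 2198 FPKM in control beside 348 for Lsp2, had 144478 and 90388 counts (-0.79, 1.72-fold, 1.71 to 1.74) and did not pass. The 3 genes together took 0.675% of counts in control and 0.382% in Levodopa. Of the Lsp2 exons, 84.6% are overlapped by other genes. The largest overlap is with the antisense RNA gene asRNA:CR11538, which had 0 counts in both libraries. It is not known whether the counting used strand. The Lsp1 genes are paralogs that can share reads.

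Of 4 genes of yolk and the female fat body 3 fell (75%, beside 0.609% of all features compared), with a median of -2.24. The yolk protein genes Yp1 and Yp2, neighbours on the X chromosome (10050951 to 10055498), went from 201 to 36 counts (6.02-fold, 4.21 to 8.84) and from 252 to 51 (5.33-fold, 3.93 to 7.35). Yp1 was compared only through its control counts. The third yolk gene, Yp3, had 2635 and 2521 counts (-0.17). The gene fit encodes a secreted female fat body protein and went from 1670 to 362 counts, 4.97-fold lower (4.44 to 5.59). Other genes cover 54.3% of the Yp1 exons. The largest overlap is with the antisense RNA gene asRNA:CR45601, which had 0 counts in both libraries. The 3 yolk genes and fit are expressed mainly in females, and of these Yp3, with the most counts, did not pass. Transcripts of the male X dosage complex were similar, with the male-specific RNA roX1 at 30978 and 33845 counts (0.02) and roX2 at 1282 and 1467 (0.09). The sex of the flies is not given, and its part in the result was not tested.

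Amylases, maltases and trehalase break down dietary and circulating sugars. Of 9 compared genes of these enzymes and tobi 2 fell (22.2%, beside 0.609% of all features compared) and 0 rose, with a median of -0.53. The amylase gene Amy-p (2R, 17118636 to 17120303, minus strand) had 4799 counts in control and 849 in Levodopa, 6.09-fold lower (5.66 to 6.56). Its near-copy Amy-d had 16725 and 11941 counts (-0.59), and the pair together were 1.81-fold lower; reads of the copies may be split between them. The glucosidase-like gene tobi, a target of brain insulin and of adipokinetic hormone signalling, had 54986 and 27894 counts, 2.13-fold lower (2.09 to 2.16). Mal-B2 (16197 and 9419 counts, -0.89) and Mal-B1 (1085 and 806, -0.53) did not pass, and the trehalase gene Treh had 15497 and 15931 counts (-0.07).

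None of 17 compared genes of the insulin axis passed (median -0.11). The insulin-like peptide genes of the brain's neurosecretory cells were all lower without passing: Ilp3 had 327 and 176 counts (-0.96), Ilp5 377 and 233 (-0.78) and Ilp2 1834 and 1443 (-0.45). Ilp6, expressed in the fat body, had 1189 and 1046 counts (-0.29). Among 12 compared glycolysis genes none passed (median -0.15), with the lactate dehydrogenase gene Ldh the furthest from 0 (597 and 333 counts, -0.93).

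Heat shock protein 70 genes stood out on the higher side. Of 6 compared Hsp70-type genes 3 rose (50%, beside 0.299% of all features compared) and 0 fell, with a median of 1.00. They are neighbours on 3R (12502510 to 12511461) and encode the inducible chaperone that refolds damaged proteins. Hsp70Bbb went from 105 counts in control to 544 in Levodopa, 4.81-fold higher (3.89 to 5.98), Hsp70Bc from 261 to 718 (2.55-fold, 2.21 to 2.95) and Hsp70Bb from 248 to 549 (2.05-fold, 1.76 to 2.40). The copies Hsp70Ab (141 and 313 counts, 0.99) and Hsp70Aa (115 and 249, 0.95) lay just short of the size rule. The copies are near-identical, so reads cannot be assigned between them with certainty. Summed over these 5 copies there were 870 counts in control and 2373 in Levodopa, 2.53-fold higher. Hsp68, a related gene, had 1193 and 1570 counts (0.29), and the copy Hsp70Ba, with at most 49 counts, was not compared.

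None of 16 other chaperone genes passed (median 0.16). Hsp83, the fly's Hsp90, had 34913 and 60591 counts (0.69), the largest change of that list. The nucleotide exchange factor gene Hsc70Cb had 6693 and 9308 counts (0.37) and DnaJ-1 5940 and 7585 (0.24). The heat shock factor gene Hsf, at 2007 and 2067 counts (-0.07), and Hsp23, at 593 and 659 (0.04), showed little difference. Of 13 genes of the endoplasmic reticulum stress response none passed (median 0.06).

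**Figure D3:**
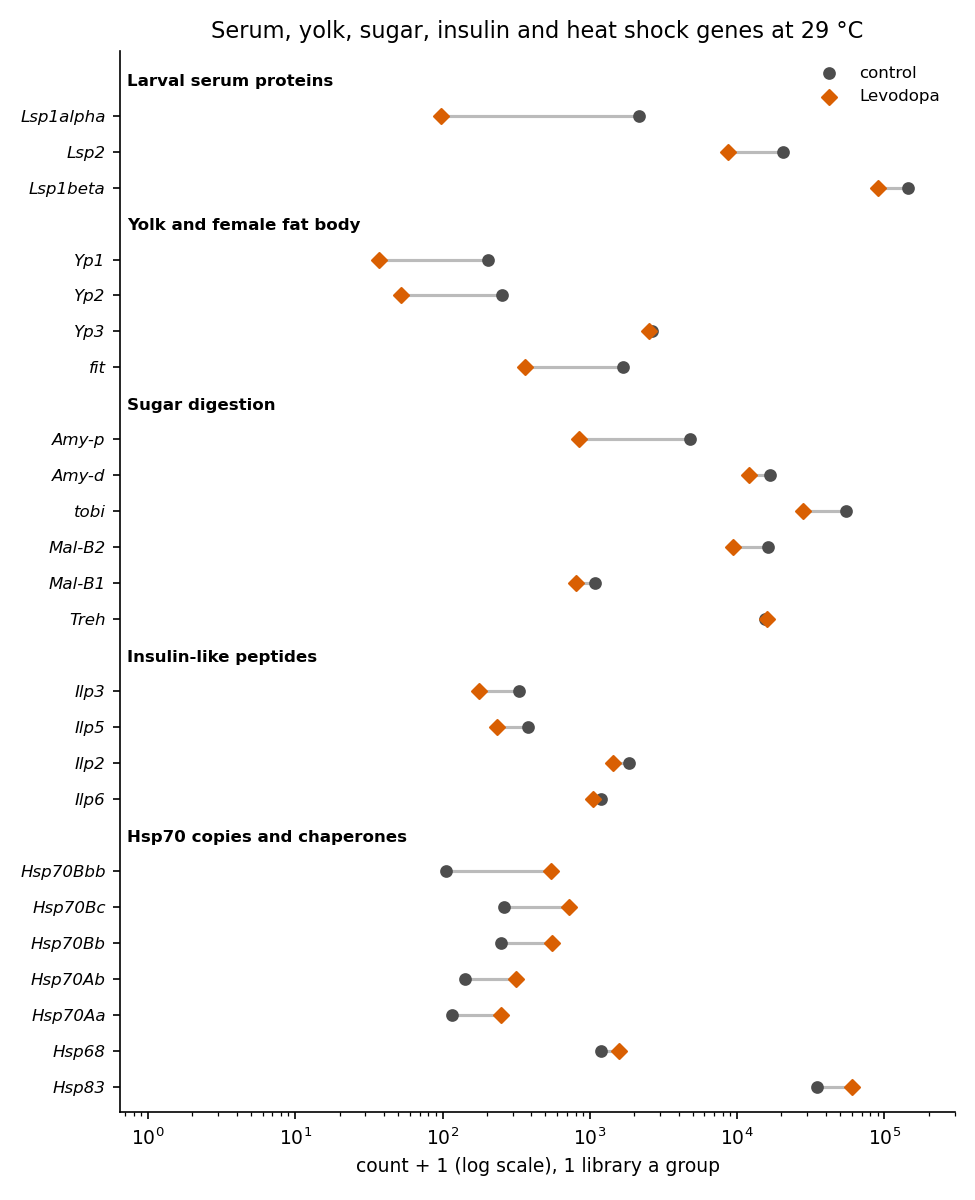
Counts plus 1 on a log scale for 24 genes of storage proteins, yolk, sugar digestion, insulin-like peptides and chaperones in the control library (grey circles) and the Levodopa library (orange diamonds) at 29 °C. Levodopa lies to the left in the upper groups except at Yp3 and Treh, where the symbols overlap, and to the right in all 7 chaperone genes, most of all at Hsp70Bbb.

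Most detoxification genes stayed within the size rule. Of 65 compared cytochrome P450 genes 2 rose and 2 fell (6.15% together, beside 0.907% of all features compared), with a median of -0.10. Cyp6a8, linked to the metabolism of foreign compounds, went from 278 to 845 counts (2.82-fold, 2.46 to 3.24) and Cyp6g2 from 54 to 137 (2.35-fold, 1.71 to 3.29). Cyp4e3 fell from 4375 to 2041 counts (2.31-fold, 2.19 to 2.44) and Cyp313b1 from 69 to 31. Cyp313b1 was compared only through its control counts. Of 20 UDP-glycosyltransferase genes Ugt37B1 alone fell (5%, beside 0.609% of all features compared), from 86 to 14 counts (6.62-fold, 3.74 to 12.6). Ugt37B1 was compared only through its control counts. None of 30 glutathione S-transferase genes, 17 antioxidant genes and 10 metal handling genes passed (medians -0.14, -0.14 and -0.11). Mdr50, encoding an ABC transporter of the multidrug resistance type, fell from 176 to 51 counts (3.72-fold, 2.71 to 5.19).

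Odorant-binding proteins carry small hydrophobic molecules, and some are made outside the sense organs. Of 24 compared 2 fell (8.33%, beside 0.609% of all features compared) and 0 rose (median -0.17). Obp99b (3R, 29716254 to 29716896) had 70333 counts in control and 36758 in Levodopa, 2.06-fold lower (2.04 to 2.09). Obp56a had 700 and 258 counts, 2.93-fold lower (2.53 to 3.39). None of 33 compared odorant, gustatory and ionotropic receptor genes passed (median 0.21).

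Dopamine genes showed no change of 2-fold, as far as 1 library a group can show. All 16 compared had log2 fold changes between -0.23 and 0.09. The tyrosine hydroxylase gene ple had 1656 and 1907 counts (0.09), the decarboxylase gene Ddc 3734 and 3964 (-0.02), the vesicular transporter gene Vmat 5857 and 6691 (0.08) and the dopamine transporter gene DAT 309 and 344 (0.04). Of 18 serotonin and octopamine genes none passed (median 0.10), with the receptor genes 5-HT1B (198 and 321 counts, 0.57) and Oct-TyrR (459 and 701, 0.49) highest. None passed among 26 neuropeptide genes (-0.08), 14 clock genes (-0.03), 28 synaptic genes (0.02) or 26 phototransduction genes (-0.01). Of 12 activity-regulated genes none passed (0.05). Within that list Arc1, a gene whose protein forms capsid-like particles in neurons, had 19098 and 10578 counts (-0.96). CR10102, a pseudogene whose deposited description matches it to Arc1, fell from 3954 to 2078 counts (2.05-fold, 1.95 to 2.17).

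**Figure D4:**
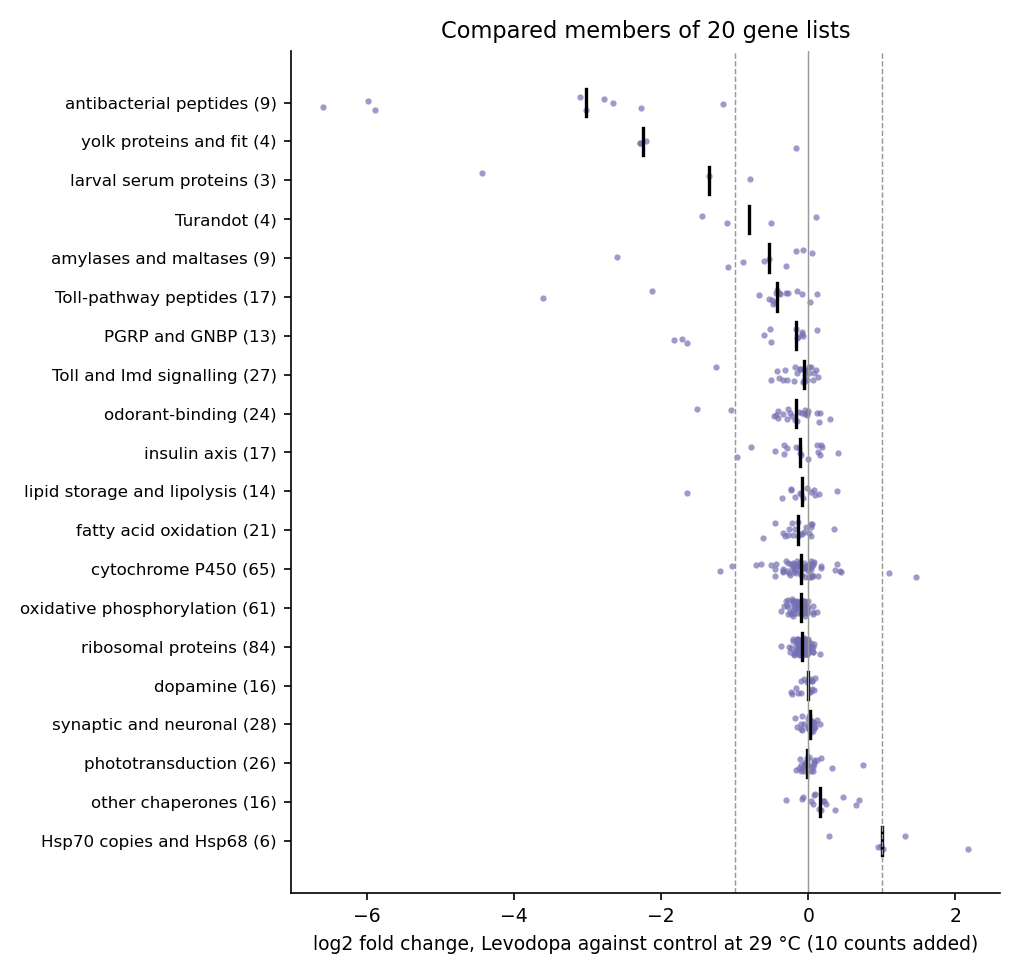
Log2 fold change of Levodopa against control at 29 °C with 10 counts added, for the compared members of 20 gene lists (points; number of members in brackets); black bars are list medians and dashed lines the 2-fold size rule. Antibacterial peptides lie furthest to the left (median -3.02) and Hsp70 copies furthest to the right (median 1.00), while dopamine, synaptic and phototransduction genes lie around 0.

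Lipid and energy genes also stayed mostly within the size rule. Of 14 lipid storage and lipolysis genes CG6283, with a lipase domain, fell from 61 to 14 counts (4.70-fold, 2.60 to 9.10), and the list median was -0.08. That is 7.14% of the list, beside 0.609% of all features compared. CG6283 was compared only through its control counts. The triglyceride lipase genes bmm and Hsl had 4813 and 4406 counts (-0.24) and 1513 and 1607 counts (-0.02). None passed among 21 fatty acid oxidation genes (-0.14), 17 fatty acid synthesis genes (-0.10), 12 lipid carriers (-0.05) and 9 genes of adipokinetic hormone and gluconeogenesis (-0.08). The malic enzyme gene Men, which supplies NADPH for fatty acid synthesis, had 32726 and 24878 counts (-0.50). Nuclear genes of oxidative phosphorylation (0 of 61, median -0.10) and of cytoplasmic ribosomal proteins (0 of 84, -0.09) held no change past the rule. Of 71 mitochondrial ribosomal protein genes mRpS24 fell (1.41%, beside 0.609% of all features compared), from 99 to 47 counts. mRpS24 was compared only through its control counts. Other genes overlap 55.3% of its exons, TBC1d7 on the other strand most of all. Of 13 mitochondrial genome features none passed (-0.06), with mt:ND3 at 1335 and 2429 counts (0.75).

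Histone H1, the protein the series was designed around, could not be followed at the RNA level: the 23 annotated His1 genes had 0 counts in both libraries. They had 0 counts in the H1OE library too, where H1 was overexpressed. These counts therefore set no upper limit on H1 RNA. None of 4 other histone genes and 25 chromatin regulators passed (medians -0.09 and 0.02). The histone methyltransferase gene Su(var)3-9 had 47 and 105 counts (0.92) and the deacetylase gene Sirt1 2460 and 3576 (0.43).

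Of the 82 features past the size rule 39 belonged to none of the lists, 23 lower and 16 higher. Apart from the pseudogene CR10102, described above, the falls with the most counts were CG1673, annotated in the deposited table as a branched-chain amino acid aminotransferase (1861 and 911 counts, -1.13), and CG8665, a 10-formyltetrahydrofolate dehydrogenase by the same annotation (1428 and 732, 2.10-fold, 1.92 to 2.30). CG32523, with a trypsin domain, had 1396 and 645 counts (2.33-fold, 2.12 to 2.57). CG42807, with no description, had 649 and 221 (3.17-fold, 2.71 to 3.71). The helicase gene RecQ4 went from 52 to 9 counts and CG7763 from 91 to 11. The other falls outside the lists were of 59 to 377 counts in control, apart from those already named.

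Among the rises CG17715, annotated as a transmembrane protein 65 homologue, went from 54 to 291 counts (log2 fold change 2.14, fold interval 3.73 to 6.81) and the translation initiation factor gene eIF4B from 90 to 286 (2.95-fold, 2.32 to 3.78). Both also differed between columns of 1 sample at 25 °C. CG17715 had 692 and 297 counts in the control columns, and eIF4B 997 and 460 in the Levodopa columns. The counting intervals do not cover such spread. Ttc26, known for transport within cilia, went from 28 to 103 counts (3.41-fold, 2.23 to 5.38). Dlip1, named for its interaction with Dorsal, went from 9 to 64 counts (6.60-fold, 3.27 to 15.1). The cyclin gene CycJ went from 29 to 88 counts and the homeobox gene C15 from 17 to 51. Of the 27 rises 8 shared at least 10% of their exons with other genes, against 5 of the 55 falls. The same share over all features compared was not counted, so no excess can be read from these numbers. CG31272 (13 and 55 counts) shared 48.4% and Nxf3 (32 and 85) 59.9%, with their largest partners at 0 counts in both libraries. Hus1-like (20 and 57) lies over ctrip, with 6511 and 7174 counts on the same strand. Reads of such pairs may be split between the genes. Of 120 compared transposable element insertions 3 rose and 1 fell (3.33% together, beside 0.907% of all features compared), all of them under 100 counts. Of all compared features under 100 counts in both libraries 4.97% passed.

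Positions and lengths of the features past the rule were counted. Arm 2R held 20 falls among 1850 features compared (1.08%), with Dro, AttA, AttB, DptA, DptB and AttC among them, and the X chromosome 6 among 1498 (0.401%), beside 0.609% of all features. Fold change also differed with exonic length. In the quartile of shortest genes, with a median of 987 bases, the median log2 fold change was -0.11, with 34 falls and 9 rises. In the longest, with 5557 bases, it was 0.06, with 2 falls and 3 rises. With that trend removed 30 features were higher and 47 lower, and 72 of the 82 still passed in the same direction.

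At 25 °C the same comparison shares no library with the one at 29 °C. Each 25 °C sample had 2 columns of counts, which were summed here; the labels do not say how they relate to separate flies. By the size rule 449 of 10142 features (4.43%) passed at 25 °C, 158 higher (1.56%) and 291 lower (2.87%). Between the columns of 1 sample 20 of 9196 features (0.217%) passed in control and 2 of 9431 (0.0212%) in Levodopa. Of 8922 features compared at both temperatures 69 passed at 29 °C and 277 at 25 °C, and 17 passed at both, 24.6% of the first and 6.14% of the second set. Of the 17, 10 went in the same direction and 7 in opposite directions.

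The diptericin genes and AttC moved oppositely. DptB had 1968 and 2067 counts in the control columns at 25 °C and 5327 and 5637 in the Levodopa columns (1.19), beside -6.59 at 29 °C. DptA had 807 and 845 in control and 3767 and 4013 in Levodopa (1.97, beside -5.98), and AttC 228 and 199 in control and 852 and 912 in Levodopa (1.77, beside -5.89). For these 3 genes both Levodopa columns lay above both control columns at 25 °C, while the Levodopa library lay below control at 29 °C. AttB and Dro, in contrast, fell at both temperatures. Dro had 2397 and 2521 counts in control and 1098 and 1096 in Levodopa at 25 °C (-1.41), and AttB 1642 and 1844 in control and 847 and 926 in Levodopa (-1.23).

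Other genes that fell at both temperatures were Drs (-3.46 at 25 °C, -2.12 at 29 °C), Obp99b (-2.80 and -1.04), Obp56a (-2.80 and -1.51), CG32523 (-2.18 and -1.21), CG6283 (-2.36 and -1.64), SPH93 (-1.73 and -2.77) and CG30154 (-1.47 and -1.06). The feature asRNA:CR46029 rose at both (1.01 and 1.01). Other genes overlap 61.4% of its exons, Gyc89Db on the other strand most of all, so their reads may not be told apart. The fat body genes Lsp2 and tobi rose at 25 °C (2.81 and 1.15) and fell at 29 °C. Their levels in control differed widely between the tables: Lsp2 had 11 and 20 counts in the control columns at 25 °C beside 20606 at 29 °C, and tobi 113 and 112 beside 54986. Lsp1alpha had 0 counts in both control columns at 25 °C, fit 9 and 18, and Amy-p 150 and 129. In the other direction the adipokinetic hormone gene Akh, expressed in the corpora cardiaca, had 463 and 562 counts in control at 25 °C and 7 at 29 °C. Temperature and whatever else separated the 2 sets of libraries cannot be told apart.

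**Figure D5:**
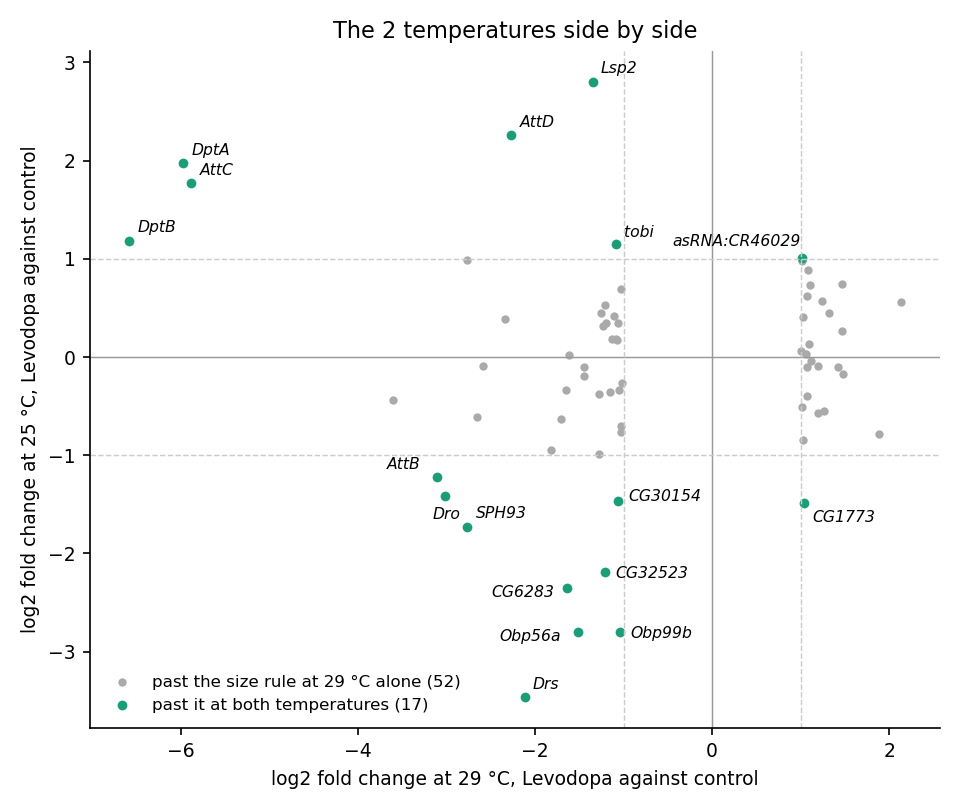
Log2 fold change of Levodopa against control at 29 °C (horizontal, 1 library a group) and at 25 °C (vertical, summed columns) for the 69 features past the size rule at 29 °C that were also compared at 25 °C; dashed lines mark 2-fold. Green points passed at both temperatures (17), with DptA, DptB, AttC, AttD, Lsp2 and tobi in the upper left and Drs, Dro and AttB in the lower left.

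The H1OE library at 29 °C was compared by the study with the same control library, so its values are set beside those of Levodopa only. DptB had 65 counts in H1OE beside 17 in Levodopa and 2435 in control. For AttC the counts were 50, 104 and 6267 in the same order, and for Lsp2 906, 8698 and 20606. PGRP-SC2 had 59 counts in H1OE, 502 in Levodopa and 1665 in control, and fit had 12, 362 and 1670. In these 5 genes both other libraries lay below the shared control. The same held for other falls, among them Lsp1alpha (log2 fold change of H1OE against control -6.95), DptA (-5.28), Obp99b (-4.02), Cyp4e3 (-2.83) and tobi (-2.75). These falls were thus not particular to Levodopa, and both comparisons rest on the same single control library. How many of the falls were shared was not counted. Amy-p went the other way in H1OE, with 11138 counts beside 849 in Levodopa and 4799 in control, and so did Drs, with 1312 beside 67 and 302. CG1673 (1.98) and Mdr50 (1.91) were also higher in H1OE than in control. Def, pirk and CG7763, also lower in Levodopa, had 56, 195 and 124 counts in H1OE beside 53, 212 and 91 in control. Hsp70Bbb had 223 counts in H1OE, 544 in Levodopa and 105 in control.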

How the data were processed

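PolyA RNA of fly heads was sequenced as paired reads. Per the submitters' processing notes reads were aligned with HISAT2 2.2.1 to dm6; what counted the reads, whether by strand and on which annotation, was not given. The authors deposited whole-number counts per feature, with 1 column a sample at 29 °C and 2 at 25 °C, and FPKM, which divide counts by length and library size. At 29 °C there were 2 columns of no labelled sample, which were not used. Loci outside the annotation held 0.0243 and 0.0265% of counts and were kept.

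Groups were taken from the labels. Libraries were scaled with TMM (edgeR 4.0.16, R 4.3.3). Features with at least 50 counts in 1 library were compared with the size rule, 2-fold after adding 10 counts, and ratios given exact 95% intervals in scipy 1.17.1 (Python 3.11.15), which cover counting error only. With 1 library a group no test was made. The rule and intervals were checked on simulated counts with counting error only. That check cannot speak to spread between flies or libraries. Alternatives were other scalings (DESeq2 1.42.0 size factors, total counts), filters, added counts, fold minima, a length trend and FPKM. At 25 °C columns were summed.

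Named genes were the 15 largest rises and falls, the 3 most changed members of each list, all passing members of lists of up to 20, runs of 3 neighbours, and genes of dopamine, lipolysis, His1, diptericin, Hsp70, Lsp1 and Yp. The 58 gene lists and the features compared were chosen with earlier results of these data known. Genes of the 23 and 16 features outside the lists, values at 25 °C and in H1OE, and Men, Hsc70Cb, DnaJ-1, Hsf, Hsp23, PGRP-LC, PGRP-LE, Rel, cact, dl, BomBc2, Treh and Ilp6 were chosen after their values were seen. Exonic overlaps used Ensembl's BDGP6 annotation, whose coordinates equalled those of the table for 8975 of 8979 genes. Sequences were not used here.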

Additional observations from a re-analysis of the deposited data

Results flagged for a closer look

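The following features passed the size rule in opposite directions at 29 °C and 25 °C. The difference between the temperatures was not tested, since 29 °C had 1 library a group and the relation of the 25 °C columns to separate flies is not given. DptB had a log2 fold change of -6.589 at 29 °C and 1.185 at 25 °C, DptA of -5.98 and 1.975, and AttC of -5.887 and 1.77. AttD had -2.268 and 2.26, on 68 and 7 counts at 29 °C and on 12 and 110 summed counts at 25 °C. The storage protein gene Lsp2 had -1.352 and 2.805 and tobi -1.087 and 1.154, both with far fewer counts at 25 °C than at 29 °C. CG1773, with a trypsin domain, had 1.042 at 29 °C (41 and 102 counts) and -1.491 at 25 °C (431 and 176 summed counts).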

How the results depend on the processing

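No paired analysis was possible because each group had 1 library. Against 27 higher and 55 lower features, a minimum of 10 counts, or no filter, gave 128 higher and 167 lower. With no counts added 50 were higher and 66 lower; with 30 added, and likewise on FPKM plus 1, 8 were higher and 41 lower, and 49 of the 82 still passed. A 1.5-fold minimum gave 120 higher and 222 lower, and a 3-fold minimum 3 and 26, with 29 of the 82 passing. Rises made up 32.9% of calls, 43.4% with the lower filter, 43.1% with no counts added, 16.3% with 30 added and 10.3% at 3-fold. DESeq2 size factors gave 27 and 55, and total-count scaling, which raised the median by 0.04, 31 and 51. Antibacterial peptides that fell numbered 9, and 8 with 30 counts added, at 3-fold or with the length trend removed. Hsp70 members higher numbered 3, 4 with total-count scaling, 5 with no counts added or at 1.5-fold, 2 with 30 added or FPKM, and 1 at 3-fold. Lists with at least 2 members past the rule in 1 direction numbered 11, 18 at 1.5-fold and 4 at 3-fold. Of 298 alternative log2 fold changes of the 15 largest rises and 15 largest falls 0 reversed, and 15 values, of 9 rises, came under 2-fold, 7 with 30 counts added and 8 with FPKM. The 298 include the settings with another filter or fold minimum. Those leave each log2 fold change as it was, so only values under the other settings could move. Falls on few counts also shrank: SPH93 went from -2.77 to -1.56 with 30 added and -1.31 with FPKM. Depth limits the 37 features under 100 counts in both libraries most. The spread between flies is unknown, so folds near 2 are not shown to exceed it. With total-count scaling, an alternative added after seeing the data, 395 features passed at 25 °C in place of 449.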

Other observations

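Features too rare for the comparison included the storage protein receptor gene Fbp1, with 1 count in control and 18 in Levodopa, yellow-g with 10 and 49, and PGRP-SC1b with 12 and 0. These are given as values only.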
